A study of Mus musculus with 2 samples.

Results

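Expression of germ cell transcription and chromatin regulators was compared between mouse embryonic stem (ES) cells labelled as a knockout (KO) of Dnmt1 and cells labelled as the control of that KO. The group is a named set of 10 genes, namely Sohlh2, Stra8, Ctcfl, Brdt, Zcwpw1, Taf7l, Cpeb1, Stk31, Tex14 and Tex15, and its members are all probe sets that the platform annotation assigns to 1 of these symbols alone. Of the 10 genes, 8 had such a probe set, with 11 probe sets between them, out of 18193 genes on the array. Ctcfl, a germ cell paralog of the insulator protein Ctcf, and Zcwpw1, a reader of methylated histone H3 at meiotic recombination sites, had none and were not measured here.

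Each group had 1 array. The Dnmt1 KO group was 1 culture of mouse ES cells, and the control group was 1 culture of ES cells named as its control. The title alone marks the KO sample, since the source name of both samples reads as a control. The sources used here give neither the KO allele, the ES cell line, its sex and passage nor any use of feeder cells, and nothing says whether the KO cells were 1 clone. The series was made as a KO control for other work on ES cell differentiation.

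DNMT1 copies methylation of CG dinucleotides to the new strand after DNA replication. The promoters of many germ cell genes are methylated and silent in somatic cells, and loss of DNA methylation is known to release part of them. The genes described here act in that setting as regulators. SOHLH2 and STRA8 act in transcription, BRDT and TAF7L belong to the chromatin and general transcription machinery of spermatogenic cells, CPEB1 acts on stored mRNA, and STK31, TEX14 and TEX15 are germ cell proteins of other kinds.

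The promoter sequences below, from RefSeq on mouse build GRCm38.p6, are shown because DNMT1 acts on CG dinucleotides, which are printed in capitals. They are the 250 bases before the annotated start, read 5′ to 3′ on the gene's own strand. The first 3 belong to the genes with the largest ratios, and Taf7l is shown beside them as an X-linked gene with a smaller ratio. Their positions are chr3:55181794-55182043 on the plus strand for Sohlh2, chr6:34920698-34920947 on the plus strand for Stra8, chr6:49395289-49395538 on the plus strand for Stk31 and chrX:134476491-134476740 on the minus strand for Taf7l.
Sohlh2: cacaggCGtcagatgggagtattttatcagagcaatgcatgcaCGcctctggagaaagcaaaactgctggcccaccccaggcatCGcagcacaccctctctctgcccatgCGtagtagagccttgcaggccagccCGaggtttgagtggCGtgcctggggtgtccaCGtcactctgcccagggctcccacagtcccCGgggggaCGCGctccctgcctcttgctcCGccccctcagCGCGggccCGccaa
Stra8: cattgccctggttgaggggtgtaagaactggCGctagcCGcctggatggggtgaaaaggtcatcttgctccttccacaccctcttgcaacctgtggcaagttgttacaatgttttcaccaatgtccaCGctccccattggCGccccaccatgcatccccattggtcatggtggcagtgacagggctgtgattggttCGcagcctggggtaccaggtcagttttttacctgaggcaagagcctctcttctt
Stk31: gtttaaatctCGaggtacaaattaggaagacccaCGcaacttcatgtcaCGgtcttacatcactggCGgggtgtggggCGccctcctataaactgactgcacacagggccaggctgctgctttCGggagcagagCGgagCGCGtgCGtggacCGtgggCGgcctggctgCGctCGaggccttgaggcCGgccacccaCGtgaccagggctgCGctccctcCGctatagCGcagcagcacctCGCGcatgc
Taf7l: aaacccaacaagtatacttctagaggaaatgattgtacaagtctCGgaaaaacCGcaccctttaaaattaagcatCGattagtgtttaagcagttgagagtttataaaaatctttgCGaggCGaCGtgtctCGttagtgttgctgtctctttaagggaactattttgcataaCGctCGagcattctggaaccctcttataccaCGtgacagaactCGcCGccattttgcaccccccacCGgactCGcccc
These stretches held 14 CG dinucleotides for Sohlh2, 5 for Stra8, 21 for Stk31 and 14 for Taf7l. Stra8 had the fewest of the 4. DNA methylation itself was not measured.

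Values are MAS5 signals, in which a probe set's perfect-match and mismatch probes are combined into 1 linear intensity. No detection calls were used, so a signal at or under the median of its array, called the floor, was treated as not measurable. The floor was 74.2 on the KO array and 60.9 on the control array. The KO array was brighter by 1.34-fold at the median gene (0.43 on the log2 scale), and all ratios are KO over control relative to this shift unless called as deposited. With 1 array per group there was no test and no p-value, and the spread between replicate cultures is unknown. As a technical scale only, the SD of the log2 ratio between probe sets of 1 gene was 0.24 over 4704 genes, and 0.27 over the 2518 of them in the signal range of the measured regulators. In these bulk samples, a change in the share of cells with a transcript and a change in RNA per cell cannot be told apart.

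The label of the KO array was checked on Dnmt1 itself. Its brightest probe set had a signal of 262.1 on the KO array and 1949.1 on the control array, 9.99-fold lower. Its other probe sets were at 56.8 and 20.0 on the KO array, under the floor, against 874.7 and 348.3 on the control array. All 10 ES cell markers were above the floor on both arrays, with a summed signal of 37284.1 on the KO array and 28318.1 on the control array, a ratio of 0.98 relative to the shift. Pou5f1 had a log2 ratio of -0.13 and Sox2 of -0.07, and both were named after their values were seen. By their brightest probe set, the pluripotency factors Klf4, Nanog and Esrrb were past 2-fold (1.92, 1.30 and 1.18), but the 3 probe sets of Esrrb averaged 0.84 ± 0.40 (SD), under 2-fold, and the 2 of Klf4 averaged 1.61 ± 0.43 (SD). The list was split, with 5 markers above the shift, 5 below it and a median log2 ratio of -0.03. Utf1 had the lowest ratio, -0.62, and Fgf4, named after its value was seen, had -0.51.

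Among the 8 regulators with a probe set, 7 exceeded the floor on both arrays and 1, Brdt, on neither. Sohlh2, Stra8 and Stk31, 3 of the 7, were higher on the KO array by 2-fold or more, and none was lower by as much. Over all 12226 genes above the floor on at least 1 array, 1.09% were higher by that margin and 0.532% lower. Restricted to the 5913 genes in the mean signal range of the 7 measured regulators, these shares were 1.54% and 0.575%. The regulators were chosen with earlier results of these data known, so these shares give a scale and are not an independent test. The median log2 ratio of the 7 was 0.49, against 0.00 over all genes measured. Relative to the shift, 5 of the 7 lay above it and 2 below. As deposited all 7 were brighter on the KO array, but so was the median gene, by 1.34-fold. The count of 7 therefore does not set these genes apart. As deposited, the same 3 regulators were past 2-fold, where 4.92% of all genes were higher and 0.0982% lower by that margin.

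**Figure D1:**
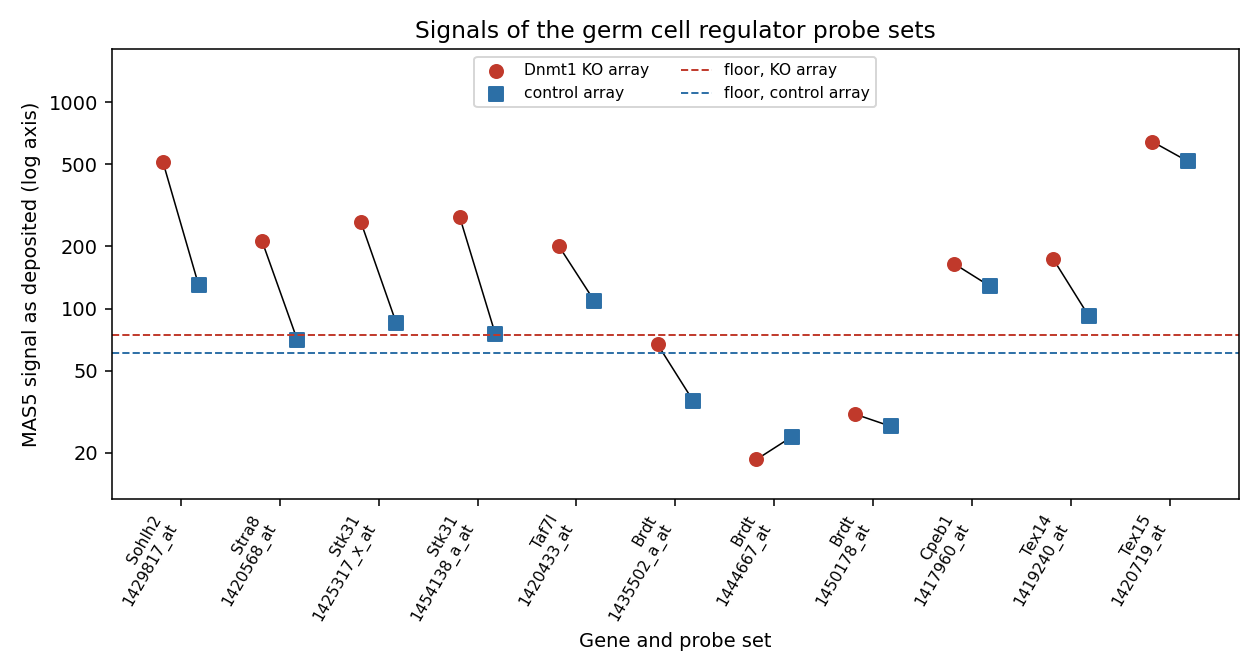
MAS5 signals as deposited, on a log axis, of the 11 probe sets of the germ cell regulators on the Dnmt1 KO array (circles, left of each pair) and the control array (squares, right). Dashed lines mark each array's floor, 74.2 on the KO array and 60.9 on the control array. Sohlh2, Stra8 and both Stk31 probe sets show the steepest pairs, and all 3 Brdt probe sets lie under the floor of their own array.

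Sohlh2 is a basic helix-loop-helix transcription factor needed for the differentiation of spermatogonia and for early oocyte growth. Its single probe set, 1429817_at, had a signal of 513.3 on the KO array and 130.4 on the control array. It was 2.93-fold higher, a log2 ratio of 1.55, or 3.94-fold higher as deposited. Both signals were clear of the floor, at 6.92 times the floor on the KO array and 2.14 times the floor on the control array. Among the 10995 genes measurable on both arrays, 20 had a higher ratio, 1 of them among the 527 on chromosome 3. Within its array, the probe set stood at percentile 84.6 of signals on the KO array and at percentile 67.4 on the control array, a comparison that needs no scaling.

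Stra8, a retinoic acid-induced factor required for entry into meiosis, had a signal of 213.7 on the KO array and 70.2 on the control array for its single probe set, 1420568_at. This was 2.27-fold higher, a log2 ratio of 1.18, or 3.04-fold as deposited. The control signal was only 1.15 times the floor, close to the level treated as not measurable, so the ratio is uncertain. Its log2 distance past 2-fold was smaller than the technical SD of 0.27. The probe set stood at percentile 71.1 of the KO array and percentile 53.6 of the control array.

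Stk31 encodes a germ cell protein with a Tudor domain and a kinase-like domain. It was the only one of the 3 with more than 1 probe set, and both gave ratios past 2-fold. Probe set 1425317_x_at had 263.6 on the KO array and 84.9 on the control array, 2.31-fold higher (log2 ratio 1.21), and probe set 1454138_a_at had 278.1 on the KO array and 75.4 on the control array, 2.75-fold higher (1.46). The suffix of the first marks a probe set in which some probes can also match other sequences, and the suffix of the second marks one that matches several transcripts of the gene. The control signals were 1.39 and 1.24 times the floor. Stk31 and Stra8 are both on chromosome 6, where 5 and 6 of 511 genes had a higher ratio than each of them.

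Taf7l, an X-linked paralog of the TFIID subunit Taf7 that acts in spermatogenic cells, had a signal of 201.8 on the KO array and 109.2 on the control array. Its log2 ratio was 0.46, 1.38-fold higher and under the 2-fold threshold. Tex14, a kinase-like protein required for the intercellular bridges of germ cells, was close to it with 173.9 on the KO array and 92.0 on the control array, a log2 ratio of 0.49. Both stayed under 2-fold as deposited too, at 1.85-fold for Taf7l and 1.89-fold for Tex14. Of the 10995 genes, 809 had a higher ratio than Taf7l and 700 a higher ratio than Tex14.

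Cpeb1 binds the cytoplasmic polyadenylation element of stored mRNAs in oocytes and in neurons. Its signal was 164.8 on the KO array and 128.5 on the control array, a log2 ratio of -0.07 (0.36 as deposited), so its direction depends on the scaling. Tex15, a large germ cell protein needed for meiotic recombination and for piRNA-directed silencing of transposons, had a signal of 644.7 on the KO array and 517.3 on the control array, 8.69 and 8.49 times the floor. Its log2 ratio was -0.11 (0.32 as deposited), again with a direction that depends on the scaling.

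Tex15 lies on chromosome 8, where the median log2 ratio was -0.37 over the 602 genes measured on both arrays. Against that median, Tex15 was 0.26 higher, and 101 of the 602 genes had a higher ratio. The other 6 measured regulators lie on chromosomes with medians between -0.08 and 0.07.

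Brdt, a testis-specific bromodomain protein that binds acetylated histones, had no probe set above the floor on either array. Its signals were 67.2, 30.8 and 18.6 on the KO array, against 35.8, 26.9 and 24.0 on the control array, for probe sets 1435502_a_at, 1450178_at and 1444667_at. Because every probe set was under the floor on both arrays, no ratio is given, and the deposited signals also differed in direction. A signal under the floor does not show that the transcript was absent.

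**Figure D2:**
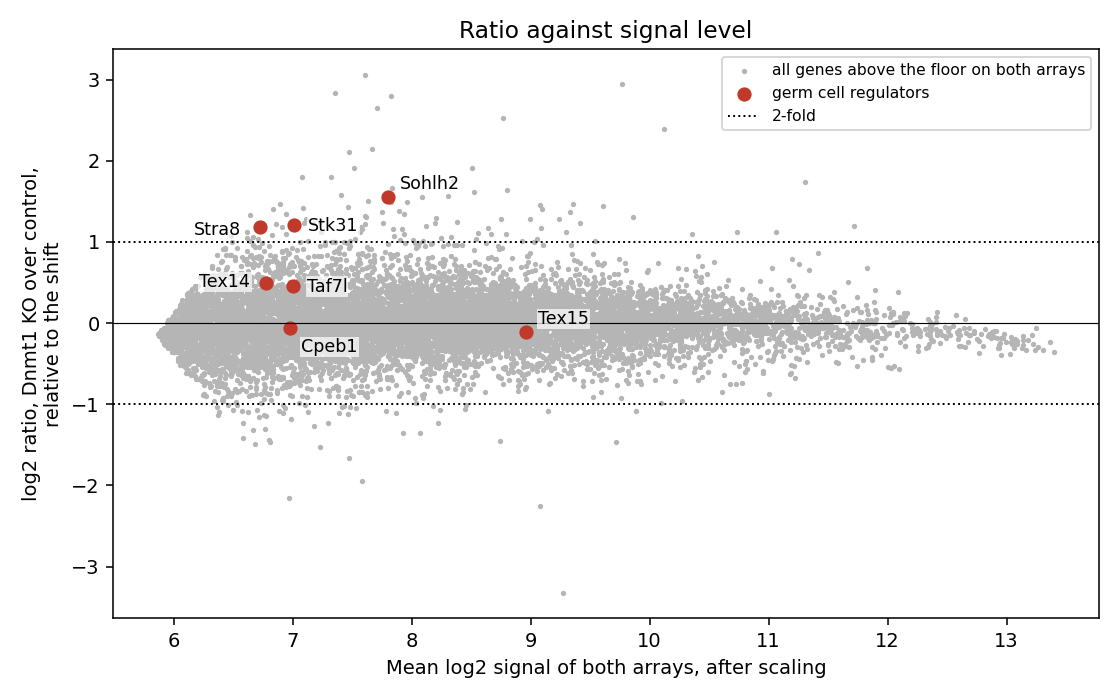
log2 ratio (Dnmt1 KO over control, relative to the shift) against the mean log2 signal of both arrays, for all 10995 genes above the floor on both arrays (grey) and the 7 measured germ cell regulators (red), with dotted lines at 2-fold. Sohlh2, Stk31 and Stra8 lie above the upper line, Tex14 and Taf7l between it and 0, and Cpeb1 and Tex15 just below 0.

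The genes next to each regulator were examined to describe whether its ratio was shared locally. For the 7 measured regulators, the nearest 2 measured genes on each side in the RefSeq gene order gave 28 neighbours. Of these, 26 were above the floor on both arrays, and none of the 26 was past 2-fold. Few genes were past that margin anywhere, with 1.09% of all measured genes higher and 0.532% lower. The median log2 ratio of the 26 was 0.02, with a range from -0.78 to 0.74. The other 2, Ccdc169 and Agbl3, were at the floor on the control array and have only a lower bound, which does not show whether they were past 2-fold. Sohlh2 at 1.55 was flanked by Ccdc169 at 0.07 or above (85.9 on the KO array and 39.4 on the control array) and by Spg20 at 0.44, Nbea at 0.03 and Wwtr1 at -0.05. Stra8 at 1.18 was flanked by Wdr91 at -0.49, Agbl3 at 0.02 or above (83.0 on the KO array and 28.6 on the control array), Cnot4 at 0.11 and Nup205 at -0.18. All 4 neighbours of Stk31 lay above the shift. The adjacent gene Fam221a had a signal of 329.0 on the KO array and 146.4 on the control array, a log2 ratio of 0.74, the highest of the 26, and Npy, Ccdc126 and Mpp6 had 0.56, 0.35 and 0.05. On chromosome 8, Tex15 at -0.11 stood beside Wrn at -0.78, Purg at -0.71, Ppp2cb at -0.41 and Ubxn8 at 0.34, the last 4 genes being named after their values were seen.

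**Figure D3:**
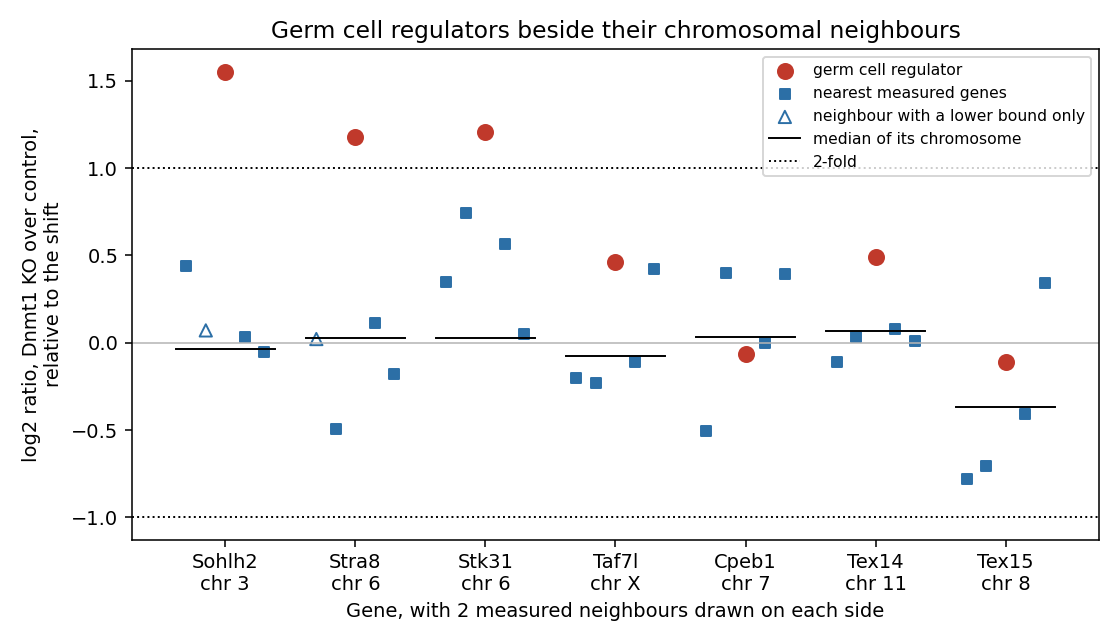
log2 ratio (Dnmt1 KO over control, relative to the shift) of each measured germ cell regulator (circles) and of the nearest 2 measured genes on each side of it (squares, or open triangles where there is only a lower bound), with the median of its chromosome as a bar and dotted lines at 2-fold. Each of the 3 regulators past 2-fold lies above those of its own neighbours that were measured on both arrays, and the bar for chromosome 8 under Tex15 lies at -0.37.

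Other regulators of germ cell transcription and chromatin were described from a list of 44 genes, of which 40 had a single-gene probe set and 28 were above the floor on at least 1 array. Scml2, 1 of the 28, was past 2-fold upward and none downward, where 1.09% of all measured genes were higher and 0.532% lower. The median log2 ratio of the list was 0.10. Sohlh1, Prdm14, Mybl1 and Prm1 were at the floor on 1 array, and their bounds, which enter this median, lie within 2-fold and do not show whether they were past it. Scml2, an X-linked Polycomb-family protein of germ cells, had a signal of 357.1 on the KO array and 33.1 on the control array, which is under the floor, so this probe set was at least 4.37-fold higher. Its other probe set was above the floor on both arrays, with 285.9 on the KO array and 67.0 on the control array, 3.18-fold higher. Morc1, a germ cell protein needed for transposon silencing, had 1028.7 on the KO array and 393.8 on the control array (log2 ratio 0.96), Rfx2, a transcription factor of ciliated and spermatogenic cells, had 0.74, and Crem, a cAMP-responsive regulator of spermatid genes, had 0.57. The 12 genes at the floor on both arrays included the oocyte factors Figla, Nobox and Lhx8, which were named after their values were seen. Sohlh1, the partner and paralog of Sohlh2, also named after its value was seen, had 84.1 on the KO array and 42.3 on the control array, and its log2 ratio was 0.04 or above.

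Broadly expressed counterparts and partners of the regulators were described next. Of 12 such genes, 11 had a probe set, and each was measurable on both arrays, with none past 2-fold in either direction and a median log2 ratio of 0.00. At shares of 1.09% higher and 0.532% lower over all measured genes, none among 11 does not set this list apart. The largest ratios in size were for the RNA-binding paralogs Cpeb4 (0.57) and Cpeb2 (0.41), the cytokinesis kinesin Kif23, a component of germ cell bridges with Tex14 (-0.35), and the insulator protein Ctcf, which lies on chromosome 8 (-0.32). The 2 probe sets of Ctcf averaged -0.53 ± 0.30 (SD). Taf7, the counterpart of Taf7l and named after its value was seen, had a log2 ratio of 0.25, with 1548.9 on the KO array and 967.9 on the control array.

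Retinoic acid induces Stra8, so genes of that pathway were described as well. Of 17 listed genes, 16 had a probe set, of which 8 were measurable on both arrays and 8 on neither. Crabp1, a cellular retinoic acid-binding protein, was at least 2-fold higher, with 398.3 on the KO array and 127.6 on the control array (2.32-fold). None was lower by 2-fold, and the median log2 ratio was 0.05. Over all measured genes, 1.09% were higher and 0.532% lower by 2-fold. The retinoic acid-producing enzyme Aldh1a2 had 206.2 on the KO array and 86.6 on the control array (log2 ratio 0.83), the receptor Rarg had -0.48, and the retinol dehydrogenase Rdh10 had 0.40. Cyp26a1, a retinoic acid-degrading enzyme that retinoic acid strongly induces, was named after its values were seen. Its signal was 70.1 on the KO array and 9.6 on the control array, under the floor on both.

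Known repressors of germ cell genes in ES cells were described last. Of 15 listed, 14 had a probe set, and each was measurable on both arrays. No gene of the list but Dnmt1 was past 2-fold, a margin that 1.09% of all measured genes passed upward and 0.532% downward. The list's median log2 ratio was 0.03. The de novo methyltransferase Dnmt3a had a ratio of 0.67 for its brightest probe set, but its 5 probe sets averaged only 0.42 ± 0.21 (SD), and Max and L3mbtl2, subunits of a variant Polycomb complex that binds germ cell gene promoters, had 0.53 and 0.47. E2f6 and Pcgf6, of the same complex and named after their values were seen, had 0.12 and 0.14.

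**Figure D4:**
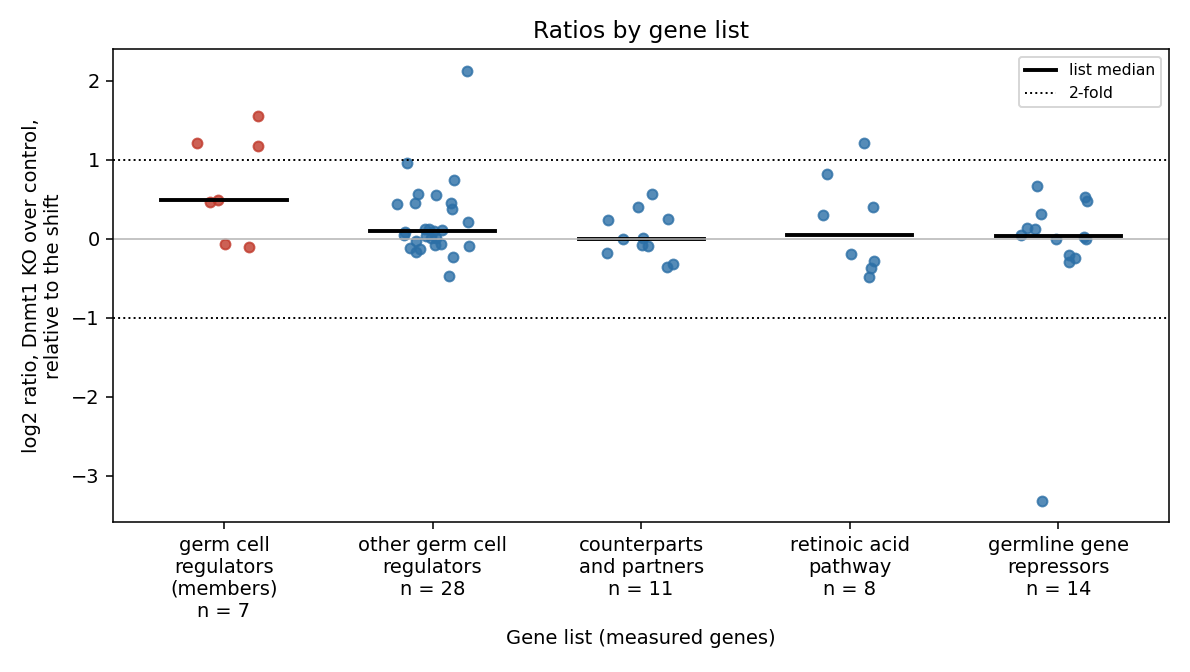
log2 ratio (Dnmt1 KO over control, relative to the shift) of the measured genes of each list, with the list median as a bar and dotted lines at 2-fold. Genes at the floor on 1 array, such as Scml2 at the top of its list, are drawn at their bound. The 7 germ cell regulators have a median of 0.49 and the other lists drawn have medians between 0.00 and 0.10. The lowest point is Dnmt1.

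Markers of germ cells and of other cell types were set beside these values. Of 8 measured germ cell markers, 1, the RNA-binding protein Dazl, was at least 2-fold higher, at 307.8 on the KO array and 59.5, under the floor, on the control array, and none was lower by as much. Over all measured genes, 1.09% were higher and 0.532% lower by that margin. The summed signal of the germ cell list was 3335.7 on the KO array and 1710.8 on the control array, 1.45-fold higher relative to the shift, with 8 markers above the floor on the KO array and 7 on the control array. Their median log2 ratio was 0.51, close to the 0.49 of the regulators, with 6 of the 8 above the shift. The receptor Kit had a log2 ratio of 0.96, but its 2 probe sets averaged 0.77 ± 0.27 (SD). The maternal factor Dppa3 had 0.69 and the meiotic axis protein Sycp3 had -0.63. The other 4, named after their values were seen, had 0.56 (Prdm1), 0.46 (Piwil2), 0.35 (Dnd1) and -0.05 (Ddx4). Of 8 spermatid markers, 1 was above the floor on the KO array and 2 on the control array. Their summed signals were 228.1 on the KO array and 237.8 on the control array, a ratio of 0.71 relative to the shift. These sums include 6 markers under the floor on both arrays, so the 0.71 does not measure a change. Prm2 was above the floor on both arrays, at 92.3 on the KO array and 68.3 on the control array, a log2 ratio of 0.01. Prm1 was above it on the control array alone, at 43.5 on the KO array and 76.7 on the control array. Of the others, Tnp1, Tnp2, Odf1 and Akap4, named after their values were seen, were below 10 on both arrays. Acrv1, also named after its value was seen, had 54.2 on the KO array and 45.2 on the control array. Of 8 fibroblast markers, which feeder cells would carry, 3 were above the floor on either array. Summed signals of all 8 were 1026.8 on the KO array and 761.4 on the control array, a ratio of 1.00 relative to the shift. Thy1 made up the largest part of each sum, with 549.8 on the KO array and 340.0 on the control array (log2 ratio 0.27). Col1a2 and Col1a1 went the other way, with log2 ratios of -0.28 and -0.66. The 2 probe sets of Col1a1 averaged -0.43 ± 0.33 (SD). These sums also include 5 markers under the floor, so the 1.00 does not measure fibroblast content. The part of fibroblast markers in the ratios of the regulators was not tested.

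The promoters of the regulators were described as a feature that played no part in choosing them. RefSeq windows of 300 bases, from 250 before the start to 50 after it, were matched for 8 of the 10 genes, all but Ctcfl and Tex15, with 10 windows among them. The windows held between 10 and 33 CG dinucleotides, against a median of 7 over all 32841 windows of that length, which include noncoding genes and several starts for some genes. Stra8 had the fewest, 10, at an observed over expected ratio of 0.43. Sohlh2 had 17 at a ratio of 0.54 and the first Stk31 window had 29 at a ratio of 0.91, so the 3 regulators past 2-fold spanned most of the range. Cpeb1, whose ratio was near 0, had the most, 33, at a ratio of 0.84.

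**Figure D5:**
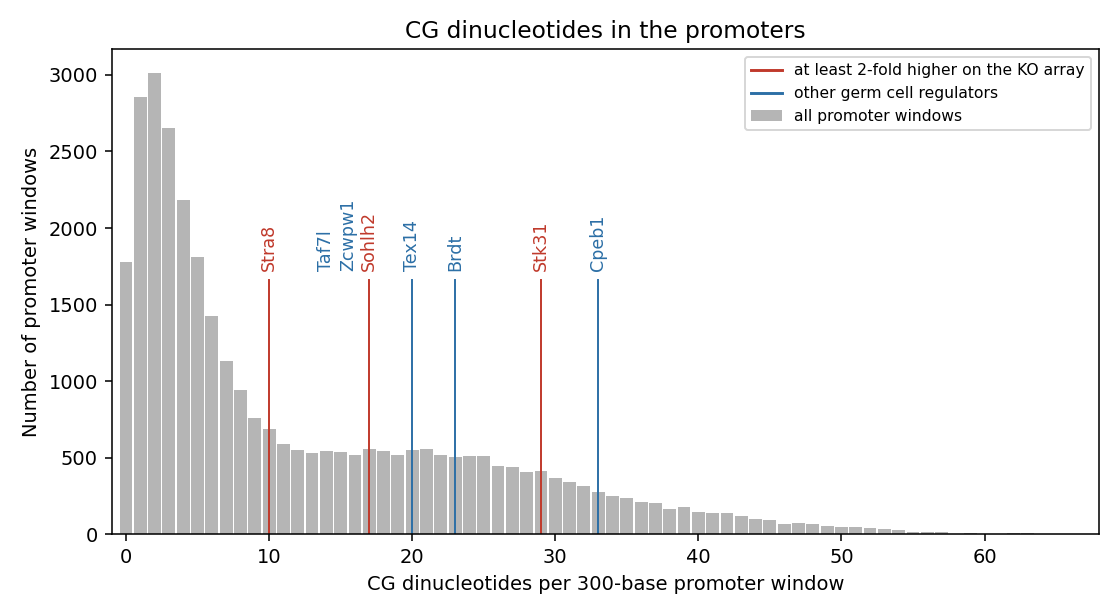
Number of RefSeq promoter windows (vertical axis) by their count of CG dinucleotides per 300 bases (horizontal axis), with the first window of each germ cell regulator marked. Zcwpw1 and Taf7l share the count of 17 with Sohlh2. The 3 regulators past 2-fold (red) stand at 10, 17 and 29.

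Motifs of known germ cell gene repressors were searched in the same windows on both strands. The E-box CACGTG, which Mga and Max bind and which reads the same on both strands, occurred in windows of 4 of the 8 genes, namely Stk31, Taf7l, Brdt and Cpeb1, and in 7.15% of all windows. It began 55 bases before the start in the first Stk31 window, 49 before in Taf7l and 78 before in Brdt, and after the start in Cpeb1. In the Stk31 and Taf7l sequences above it is the stretch written caCGtg. The E2F6-type site TCCCGC or its reverse complement occurred in 2 of the 8, Tex14 and Cpeb1, and in 20.0% of all windows. The motifs share no bases with each other in the windows. Sohlh2 and Stra8 had neither in the window. A match describes the letters of the window and was not tested as a binding site, and of the genes that held the E-box, Stk31 was past 2-fold, Taf7l under it, Cpeb1 near 0 and Brdt without a ratio.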

How the data were processed

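Total RNA from 2 cultures of mouse ES cells was hybridised to Affymetrix 3' expression arrays, 1 array per group, after phenol-based extraction, column purification and 1 cycle of biotin labelling, per the labels' protocols. MAS5 produced the deposited probe set intensities, per the submitters' processing notes. The values are linear, and the sources used here state no scaling between arrays. The mean after trimming both ends was 246.8 on the KO array and 184.0 on the control array.

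Of 45101 probe sets, 64 Affymetrix controls and 932 with several symbols were left out, and 34945 had 1 gene. Of these, 34741 matched the RefSeq table of GRCm38.p6, which also gave chromosomes and gene order. The array median was the floor, and a gene was its brightest probe set. Ratios were centred on the median gene above the floor on both arrays. Where 1 array was at the floor, the ratio is a bound. No test was possible, and called means at least 2-fold. The number of arrays limits the precision.

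The procedure was tested on simulated data, with changes larger than those of the regulators, put into genes well above the floor. That test does not cover ratios near 2-fold or signals near the floor. Named were all members, Dnmt1, list members at least 2-fold different or with up to 4 of the largest ratios, and neighbours of members past 2-fold. Genes named outside this rule are marked as named after their values were seen. Members, lists and settings were chosen with earlier results of these data known. Pandas 2.3.3, numpy 2.4.6 and statsmodels 0.14.6 were used on Python 3.11.15. Protein sequences were not analysed here.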

Additional observations from a re-analysis of the deposited data

How the results depend on the processing

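The count of regulators at least 2-fold higher, 3, was the same with values as deposited, quantile normalization, lowess, a floor at the 25th percentile, no floor, the mean over probe sets and a 1.5-fold threshold, and each time the genes were Sohlh2, Stra8 and Stk31. It was 0 with a floor at the 75th percentile, where 3 regulators could be measured and Sohlh2 and Stk31 had log2 ratios of at least 0.91 and at least 0.03, because their control signals were then at the floor. It was also 0 at a 3-fold threshold. The share of all measured genes called higher moved with the settings too. Where the count was 3, this share ran from 0.851% (mean over probe sets) to 4.92% (as deposited). With the 75th percentile floor the share was 0.672%, and at the 3-fold threshold 0.262%. An equal count thus does not mean an equal share of all genes. The count of regulators at least 2-fold lower was 0 in all 10 settings. Over the settings, the log2 ratio ran from 0.91 to 1.98 for Sohlh2, from 1.17 to 1.61 for Stra8 and from 0.03 to 1.63 for Stk31, and from 0.46 to 0.89 for Taf7l and 0.49 to 0.92 for Tex14. It ran from -0.07 to 0.36 for Cpeb1 and from -0.13 to 0.32 for Tex15, and for both of these the highest value was that as deposited. The lowest values of Sohlh2 and Stk31 are the bounds at the 75th percentile floor. Stra8, Taf7l, Tex14 and Cpeb1 had no ratio at that floor, so their narrower ranges leave that setting out. No paired analysis was possible because each group had 1 array. Signals near the floor limit the ratios of Stra8 and Stk31 most, and no replicate measures the spread between cultures.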
